A study of Rattus norvegicus with 6 samples.

Results

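Autophagy and ER-phagy genes were followed in the pancreas of rats fed an ethanol diet and rats fed a control diet. The set was chosen by name and holds 9 genes: the receptors Retreg1 and Sqstm1, the Atg8 proteins Map1lc3a, Map1lc3b, Gabarap and Gabarapl2, the nucleation factor Becn1 and the lysosomal membrane proteins Lamp1 and Lamp2. Every probe set that the platform annotation assigns to 1 of these symbols alone was taken, which gave 14 probe sets of 7 genes, out of 12783 probe sets and 10411 genes named in this way among the 15866 probe sets of the array. Map1lc3b and Gabarapl2 are each read by 1 probe set that carries several symbols, so no value is given for them.

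Total RNA of whole pancreas from 3 rats on the ethanol diet and 3 rats on the control diet was hybridised to single-colour expression arrays, 1 array per rat. The labels give no strain, sex, age, ethanol content or feeding time; the series title calls the ethanol consumption chronic. The organ is mostly acinar tissue, and the 7 acinar markers checked (among them Cpa1, Cel, Prss2 and Ptf1a) summed to 639930 to 664139 on the ethanol arrays and 635384 to 639396 on the control arrays. In whole tissue, fewer cells of a type and less RNA per cell cannot be told apart.

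Autophagy encloses cytoplasm in a double membrane and delivers it to the lysosome. Becn1 belongs to the lipid kinase complex that starts this membrane, Atg8 proteins are coupled to its lipids, and receptors that bind Atg8 proteins tether the cargo. Sqstm1, also called p62, carries ubiquitinated cargo and is itself degraded with it. Retreg1, also called Fam134b, is a reticulon-like receptor that brings sheets of endoplasmic reticulum (ER) to the autophagosome, a process named ER-phagy. Acinar cells hold a very large ER for enzyme synthesis and are known to depend on autophagy for their upkeep.

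Promoter sequence was matched for 7 of the 9 members in RefSeq's GRCr8 assembly. The 250 bases before the annotated gene start are printed for Retreg1 and Sqstm1, the members with the largest differences between diets, and for Lamp1, whose window holds the most motif matches of the 7. Capitals mark matches on either strand to 4 motifs: CACGTG (the core of the CLEAR element, which TFEB and TFE3 bind), TGACGTCA (the cyclic AMP response element), TGACNNNGC (the core of the antioxidant response element) and GTAAACA (a FOXO site). The sequences run 5′ to 3′ on the strand of the gene.
Retreg1, chr2:78065874-78066123, plus strand: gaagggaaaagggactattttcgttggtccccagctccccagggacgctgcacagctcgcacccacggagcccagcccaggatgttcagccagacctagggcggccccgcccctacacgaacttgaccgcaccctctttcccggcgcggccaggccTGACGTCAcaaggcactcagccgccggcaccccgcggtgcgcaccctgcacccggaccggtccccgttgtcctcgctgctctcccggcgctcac
Sqstm1, chr10:35037751-35038000, minus strand: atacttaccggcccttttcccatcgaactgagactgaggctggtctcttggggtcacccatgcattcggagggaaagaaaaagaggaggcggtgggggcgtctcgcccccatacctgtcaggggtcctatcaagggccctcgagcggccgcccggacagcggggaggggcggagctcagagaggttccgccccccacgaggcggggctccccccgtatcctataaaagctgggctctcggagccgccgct
Lamp1, chr16:83075064-83075313, minus strand: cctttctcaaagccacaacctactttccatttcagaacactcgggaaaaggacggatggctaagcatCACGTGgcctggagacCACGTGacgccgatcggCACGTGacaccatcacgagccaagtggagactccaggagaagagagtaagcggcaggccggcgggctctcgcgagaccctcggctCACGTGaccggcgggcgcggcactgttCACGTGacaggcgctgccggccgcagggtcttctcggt

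The Retreg1 window holds 1 copy of TGACGTCA, which begins 94 bases before the gene start, and 1.59% of 33469 promoter windows of the same length hold that motif. The Sqstm1 window holds none of the 4 motifs. The Lamp1 window holds 5 copies of CACGTG, a motif found in 5.59% of windows, and none of the other 3 motifs. With 5 copies, a number chosen after the Lamp1 sequence was seen, it is the only such window of the 33469 (0.00299%). The Gabarap window has 1 match to TGACNNNGC (10.1% of windows), and those of Map1lc3b, Gabarapl2 and Lamp2 have no match to any of the 4, GTAAACA included (3.21% of windows). No 2 matches overlap in these windows, and a match is a run of letters, not a measured binding site.

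Retreg1 lay higher in the ethanol-fed rats on both of its probe sets. Sqstm1 lay lower on 2 of its 4, while its tested probe set 1371221_at was at a log2 change of 0.06. The other members differed less. No member passed the test over the whole array. Of the 14 member probe sets, 11 reached the intensity filter (the 40th percentile of the mean, at an intensity of 392), and limma called 0 of these 11 at an adjusted p under 0.05, against 0.410% of the 9520 probe sets tested. Before adjustment, limma's p was under 0.05 for 2 of the 11 in the higher direction and for 3 in the lower, where 8.08% of all tested probe sets had such a p and were higher and 10.3% were lower. The diets did not overlap on 3 member probe sets that were higher and 2 that were lower, an arrangement seen on 11.1% and 14.3% of tested probe sets. Both sets of counts hold the 2 Retreg1 probe sets and 2 of Sqstm1. The only other gene was Gabarap by the p and Map1lc3a by non-overlap. The counts therefore take the same gene more than once and are not counts of separate genes. The median log2 change of the 11 was 0.09, and that of all tested probe sets was 0.0002. Changes are ethanol minus control on the log2(value + 50) scale, which understates those of dim probe sets.

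The ER-phagy receptor Retreg1 is read by 2 probe sets. On the brighter, 1373011_at, the ethanol arrays read 7897, 8405 and 8118, against 4977, 4314 and 4940 on the control arrays. The lowest ethanol array stood well clear of the highest control array, and the gap was several times the spread within either diet. The means were 8140 ± 255 on ethanol and 4744 ± 373 on control (SD, n = 3 each), a log2 change of 0.78 (SE 0.14, 95% interval 0.46 to 1.09), and a ratio of 1.71 on that scale. This did not pass over the whole array (limma adjusted p = 0.0613).

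The dimmer Retreg1 probe set, 1373012_at, went the same way. It read 1459, 1290 and 1177 on the ethanol arrays, against 1128, 733 and 713 on the control arrays. The diets did not overlap, but control replicate 1 lay close under the lowest ethanol array. The log2 change was 0.61 (SE 0.20, 95% interval 0.15 to 1.06, limma adjusted p = 0.171). The changes of the 2 probe sets differed by 0.17 (two-sided exact permutation p = 0.6). The platform annotation gives both the same source sequence, so they are not independent readings of the gene.

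Sqstm1, the ubiquitin-binding cargo receptor, is read by 4 probe sets that did not report the same difference. The brightest, 1371353_at, read 3916, 4205 and 3500 on the ethanol arrays, against 6483, 6245 and 7486 on the control arrays. All 3 ethanol rats lay far below all 3 control rats. The log2 change was -0.79 (SE 0.15, 95% interval -1.13 to -0.45, limma adjusted p = 0.0726), a ratio of 0.578 on that scale. On 1389381_at the ethanol arrays read 748, 1105 and 987, against 1706, 1749 and 1498 on the control arrays. The diets were again apart, and the log2 change was -0.79 (SE 0.17, 95% interval -1.18 to -0.39, limma adjusted p = 0.0947).

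The third Sqstm1 probe set, 1371221_at, read 1419, 1184 and 1040 on the ethanol arrays, against 1239, 1326 and 930 on the control arrays. Here the diets overlapped throughout, and the log2 change was 0.06 (SE 0.19, 95% interval -0.36 to 0.49, limma adjusted p = 0.886). The fourth, 1371220_at, lay under the filter, with 472, 107 and 351 on the ethanol arrays and 408, 119 and 161 on the control arrays. Its arrays differed more within each diet than between diets. These last 2 share a source sequence in the platform annotation, which differs from those of the other 2.

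The disagreement was tested as the difference in log2 change between probe sets of a gene, over 11 pairs in 4 genes. Some of these pairs hold a probe set under the filter, and the adjustment covers them too. Among these is 1398816_at of Lamp1, which is constant on the log2 scale because all its values are below 0. The change on 1371353_at was lower than that on 1371221_at by a difference of -0.85, and the change on 1389381_at differed from it by -0.85 as well (two-sided exact permutation p = 0.1 for each, adjusted over the pairs 0.44). With 3 arrays against 3, 0.1 is the smallest p this test can give. The changes on 1371353_at and 1389381_at differed from each other by -0.0053 (exact permutation p = 0.9). With the 3 tested probe sets averaged, the log2 change of Sqstm1 was -0.50 (limma adjusted p = 0.133); with the 2 Retreg1 probe sets averaged it was 0.69 (limma adjusted p = 0.0962).

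**Figure D1:**
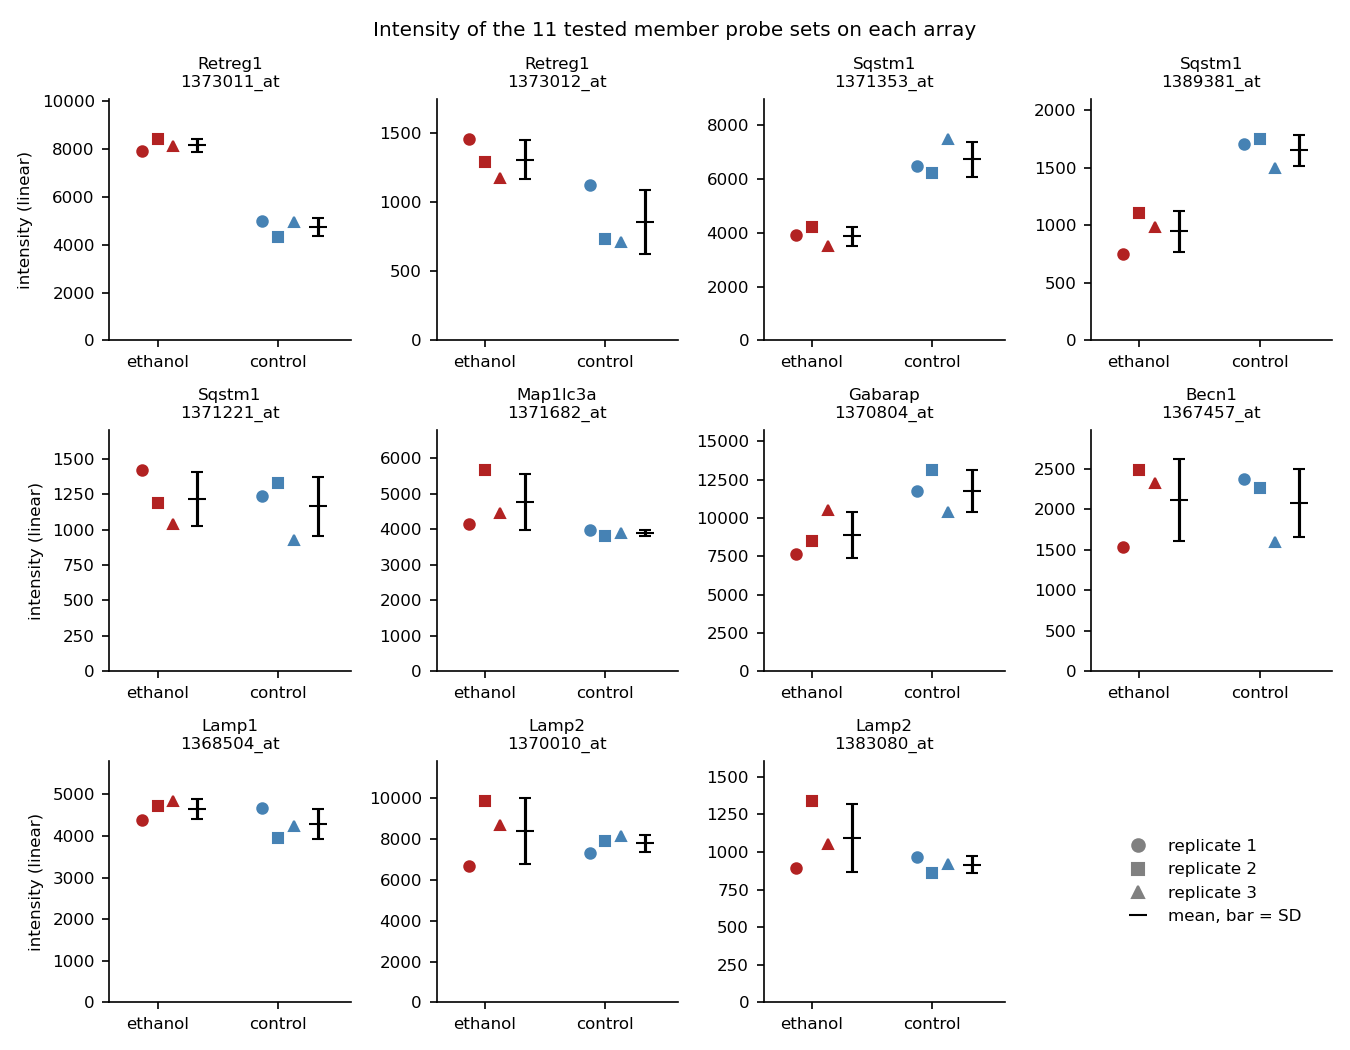
Intensity of the 11 tested member probe sets (vertical axes, linear and starting at 0) on each ethanol and control array; symbols stand for replicates, and black bars for the mean ± SD of 3 rats. Both Retreg1 probe sets are higher in all ethanol rats, 1371353_at and 1389381_at of Sqstm1 are lower, and 1371221_at of Sqstm1 overlaps.

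The Atg8 members, which coat the growing membrane, went in opposite directions. Map1lc3a, an LC3 protein, read 4157, 5663 and 4463 on the ethanol arrays, against 3976, 3802 and 3885 on the control arrays. The lowest ethanol array was just above the highest control array, and ethanol replicate 2 was well above the rest. The log2 change was 0.28 (SE 0.16, 95% interval -0.09 to 0.64, limma adjusted p = 0.389).

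Gabarap, of the other branch of the Atg8 family, read 7658, 8502 and 10529 on the ethanol arrays, against 11779, 13124 and 10383 on the control arrays. The diets overlapped at 1 point, where ethanol replicate 3 was slightly above control replicate 3. The log2 change was -0.41 (SE 0.17, 95% interval -0.80 to -0.01, limma adjusted p = 0.256).

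Becn1, the scaffold of the nucleation complex, read 1534, 2481 and 2317 on the ethanol arrays, against 2368, 2267 and 1590 on the control arrays. Each diet held 1 low rat and 2 high ones, and the ranges covered each other. The log2 change was 0.02 (SE 0.23, 95% interval -0.51 to 0.54, limma adjusted p = 0.977), an interval wide enough to hold a change of moderate size in either direction.

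Lamp1 and Lamp2 are heavily glycosylated proteins of the lysosomal membrane. The bright Lamp1 probe set, 1368504_at, read 4389, 4719 and 4840 on the ethanol arrays, against 4680, 3958 and 4231 on the control arrays. The diets overlapped, and the log2 change was 0.12 (SE 0.14, 95% interval -0.20 to 0.44, limma adjusted p = 0.686). The other 2 Lamp1 probe sets lay under the filter and were not tested. Readings of 1375629_at were 203 to 328 on the ethanol arrays and 212 to 337 on the control arrays. Those of 1398816_at were below 0 on all 6 arrays.

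Lamp2, needed for the fusion of autophagosomes with lysosomes, read 6681, 9855 and 8674 on the ethanol arrays of 1370010_at, against 7337, 7880 and 8162 on the control arrays. The ethanol arrays spread on both sides of the controls, with the lowest and the highest reading of the 6. The log2 change was 0.09 (SE 0.17, 95% interval -0.31 to 0.49, limma adjusted p = 0.809). On 1383080_at the ethanol arrays read 894, 1337 and 1050, against 968, 858 and 917 on the control arrays (log2 change 0.23, SE 0.17, 95% interval -0.17 to 0.63, limma adjusted p = 0.508). The rats kept the same order within ethanol on both Lamp2 probe sets, and the changes of the 2 differed by -0.14 (exact permutation p = 0.2).

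**Figure D2:**
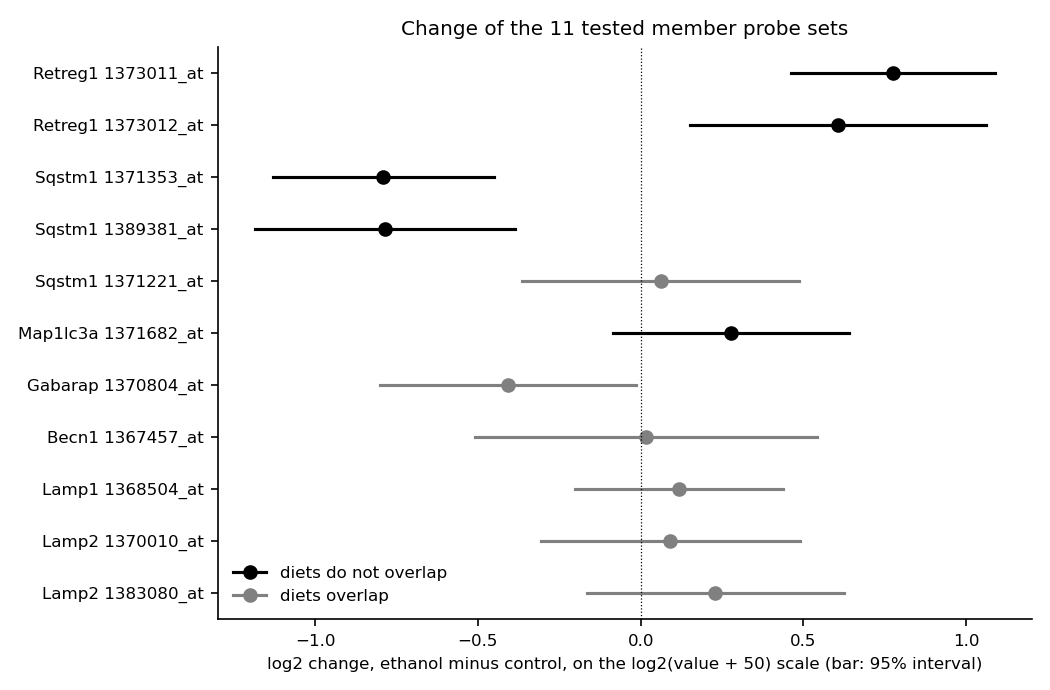
Log2 change (horizontal axis, ethanol minus control on the log2(value + 50) scale) of the 11 tested member probe sets, with limma's 95% interval; black marks probe sets on which the diets do not overlap. The intervals of both Retreg1 probe sets lie above 0, those of 2 Sqstm1 probe sets and of Gabarap lie below 0, and the other 6 cross 0.

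Within the ethanol diet, replicate 1 was the lowest of the 3 arrays on 8 of the 11 member probe sets (72.7%), against 36.7% of all tested probe sets. It was the lowest on Becn1, Lamp1, both Lamp2 probe sets, Gabarap, Map1lc3a, 1373011_at of Retreg1 and 1389381_at of Sqstm1. On 1373012_at of Retreg1 and 1371221_at of Sqstm1 it was the highest ethanol array, and on 1371353_at of Sqstm1 it lay between the others. This array was not named in advance, and probe sets read on 1 array are not independent. On both Retreg1 probe sets each ethanol rat was above each control rat, and on 1371353_at and 1389381_at of Sqstm1, though not on 1371221_at, each was below. Without ethanol replicate 1 the log2 change was 0.80 for 1373011_at (limma adjusted p = 0.0815), -0.80 for 1371353_at (limma adjusted p = 0.101) and -0.63 for 1389381_at (limma adjusted p = 0.125).

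**Figure D3:**
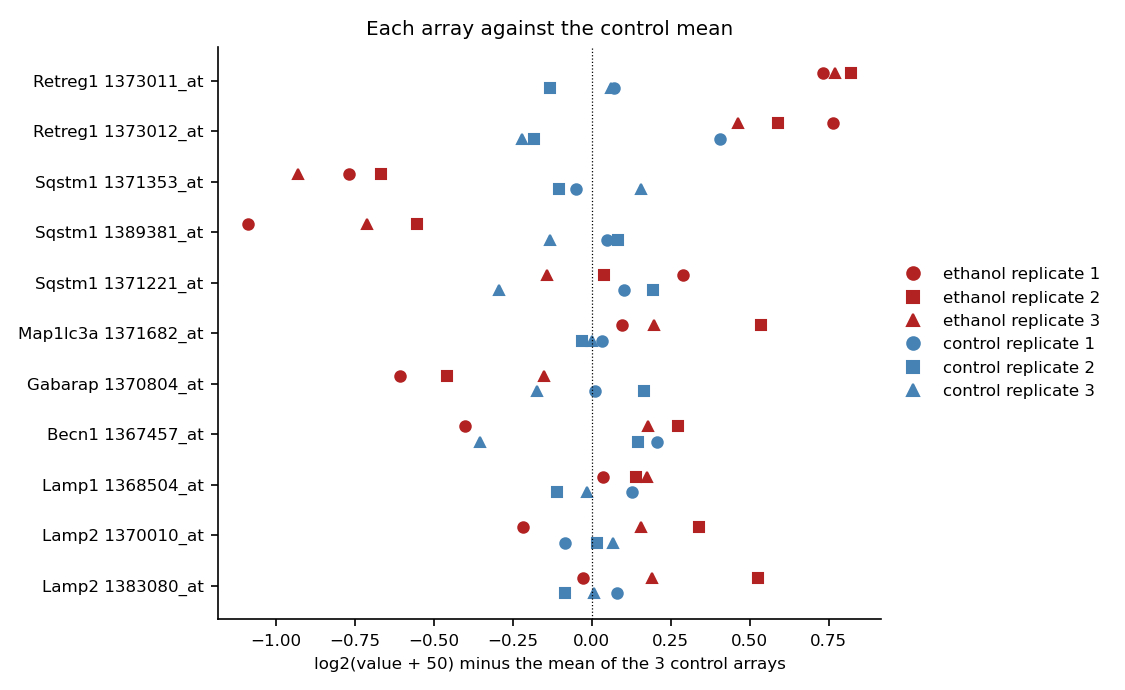
Each array's log2(value + 50) minus the mean of the 3 control arrays (horizontal axis) for the 11 tested member probe sets; red stands for ethanol, blue for control, and symbols for replicates. Ethanol replicate 1, the red circle, is the lowest ethanol array on 8 of the 11.

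The members were set beside 7 lists of the autophagy and lysosome pathway, with 138 genes, of which 98 had a tested probe set. Each gene was read on its tested probe set of highest mean. limma called 0 of the 98 at an adjusted p under 0.05, against 0.436% of all 7106 genes. Before adjustment, limma's p was under 0.05 for 7 of the 98 genes in the higher direction and for 9 in the lower, where 7.66% of all genes were higher by this rule and 11.2% lower, so the counts were near the background. The median log2 change of the 98 genes was -0.05, and that of all genes was -0.01.

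The next list held 13 genes of ER-phagy and of UFMylation, the ubiquitin-like modification that takes part in it (median -0.12). By the unadjusted p 2 were higher and 2 lower, against 7.66% and 11.2% of all genes. The first 2 were Retreg1 and Rtn3, the receptor for tubular ER. Rtn3 averaged 4500 ± 406 on ethanol and 3128 ± 135 on control (SD, n = 3 each), which is a log2 change of 0.51 with an SE of 0.14 (limma adjusted p = 0.132). Its other tested probe sets gave 0.77 (SE 0.14) and -0.19 (SE 0.16), so the probe sets of Rtn3, like those of Sqstm1, did not report the same difference. Neither this -0.19 nor the 0.06 (SE 0.19) of Sqstm1 was told apart from 0 by limma's unadjusted p. Ufl1, the ligase of UFMylation, averaged 504 ± 109 on ethanol and 768 ± 93.9 on control (log2 change -0.57, SE 0.19, limma adjusted p = 0.168). Its partner Cdk5rap3 averaged 809 ± 84.7 on ethanol and 1150 ± 123 on control (log2 change -0.48, SE 0.15, limma adjusted p = 0.165).

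The list of cargo receptors had 11 tested genes, Sqstm1 included (median -0.20). By the unadjusted limma p 0 of them were higher and 3 lower, against 7.66% and 11.2% of all genes. Besides Sqstm1 these were Phb2, a mitophagy receptor of the inner mitochondrial membrane (log2 change -0.42, SE 0.16), and Wdfy3, an adaptor for protein aggregates (log2 change -0.39, SE 0.16). The glycogen receptor Stbd1, at -0.33 (SE 0.16), came next. Limma adjusted p ran from 0.211 to 0.300 over these 3 genes. The diets did not overlap on any of them, as on 14.3% of all tested probe sets in the lower direction. The 3 were named for the smallest p of the list besides Sqstm1, which favours such a separation.

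Initiation and nucleation factors held 14 tested genes (median -0.09). By the unadjusted p 0 were higher and 3 lower, against 7.66% and 11.2% of all genes. Wdr45, a lipid-binding protein of the WIPI family, averaged 836 ± 177 on ethanol and 1501 ± 70.0 on control (log2 change -0.83, SE 0.17, limma adjusted p = 0.0861). Atg13 averaged 936 ± 118 on ethanol and 1367 ± 19.1 on control (log2 change -0.53, SE 0.15, limma adjusted p = 0.136). Its binding partner Atg101 averaged 346 ± 98.8 on ethanol and 573 ± 50.9 on control (log2 change -0.68, SE 0.19, limma adjusted p = 0.142). Atg13 and Atg101 are subunits of the ULK kinase complex. On all 3 genes each ethanol array was below each control array, as on 14.3% of all tested probe sets. The 3 were named for the smallest p of their list, which favours such a separation.

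In the Atg8 family and its conjugation enzymes, 1 gene of 9 had an unadjusted p under 0.05 (median -0.08). It was Gabarap, in the lower direction, where 11.2% of all genes had such a p. Its close relative Gabarapl1 averaged 2247 ± 170 on ethanol and 2776 ± 327 on control (log2 change -0.30, SE 0.15, limma adjusted p = 0.335), and its highest ethanol array, 2426, was just under its lowest control array, 2429. The ubiquitin-like Atg12 was at 0.24 (SE 0.17) and the protease Atg4a at 0.21 (SE 0.20), with the diets overlapping on both. For fusion with the lysosome, 0 of 8 genes had an unadjusted limma p under 0.05 (median -0.15), against 7.66% of all genes higher and 11.2% lower. The tethering subunits Vps11 and Vps16 were at -0.25 (SE 0.14) and -0.41 (SE 0.26), and the SNARE Snap29 at -0.16 (SE 0.15).

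Lysosomal membrane and proton pump genes numbered 19 (median -0.04). By the unadjusted p 1 was higher and 0 lower, against 7.66% and 11.2% of all genes. The gene was Mcoln1, the lysosomal calcium channel, which averaged 1154 ± 178 on ethanol and 846 ± 41.5 on control (log2 change 0.42, SE 0.15, limma adjusted p = 0.211). The proton pump accessory protein Atp6ap1 was at 0.33 (SE 0.15) and the pump subunit Atp6v1d at -0.33 (SE 0.16).

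Regulators numbered 24, with 4 higher and 0 lower by the unadjusted p (median 0.15). Over all genes 7.66% were higher and 11.2% lower by this rule, and the list as a whole was not tested. Sesn1, a sestrin that restrains the growth kinase complex mTORC1, averaged 2099 ± 156 on ethanol and 1053 ± 287 on control (log2 change 0.99, SE 0.20, limma adjusted p = 0.0858). Ddit4, which also restrains mTORC1, had the largest log2 change of the 98 genes at 2.11 (SE 0.35, limma adjusted p = 0.0571). Foxo1, a transcription factor that drives autophagy genes, averaged 807 ± 253 on ethanol and 432 ± 136 on control (log2 change 0.83, SE 0.27, limma adjusted p = 0.171), and ethanol replicate 1 lay under the highest control. The fourth, named after its values were seen, was the lysosomal GTPase Rragd at 0.42 (SE 0.16).

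**Figure D4:**
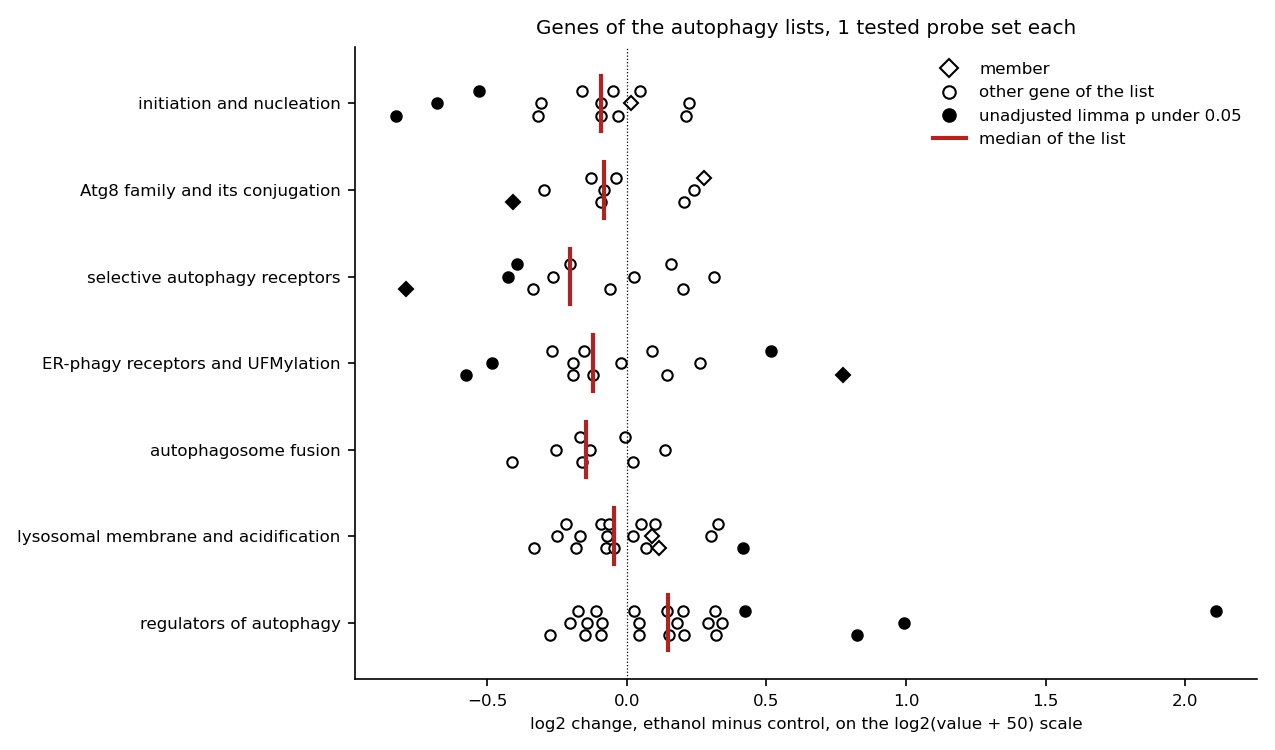
Log2 change (horizontal axis, ethanol minus control on the log2(value + 50) scale) of each gene of the 7 lists on its tested probe set of highest mean; diamonds are members, filled symbols have an unadjusted limma p under 0.05, and red bars are list medians. Retreg1, at 0.78, and Sqstm1, at -0.79, lie at the ends of their lists, whose medians are -0.12 and -0.20.

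Likeness to the members over the 6 arrays was ranked by Pearson's r of the log2 values among 7105 other genes, as a description. Closest to Retreg1 were the diphosphoinositol phosphatase Nudt4 (r = 0.990), the respiratory chain subunit Ndufa4 (r = 0.989) and the nuclease Tatdn2 (r = 0.989). Closest to Sqstm1 were Zfp330 (r = 0.992), the nuclear envelope protein Sun1 (r = 0.992) and the mitochondrial carrier Sfxn3 (r = 0.992). Such values were common, with 178 genes above 0.9 for Retreg1 and 285 for Sqstm1. As the diets lay apart on both members, r over the 6 arrays includes the gap between diets.

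Log2 values of all probe sets correlated with r from 0.925 to 0.944 between rats of a diet and from 0.913 to 0.929 between diets, across probe sets that are not replicates. The 3′ over 5′ signal of beta-actin, a sign of RNA integrity, ran from 1.54 to 1.78 on ethanol and 1.44 to 2.01 on control, and that of GAPDH from 1.52 to 1.87 on ethanol and 1.63 to 2.11 on control. The brightest member reading, 13124, lay far under the lowest array maximum of 163449. In 9 marker lists for cell types of the organ, limma called 0 genes at an adjusted p under 0.05. Tested were 7 acinar, 6 islet, 4 macrophage, 4 erythroid, 3 stellate and fibroblast, 2 endothelial, 2 adipocyte and 1 duct marker. For T and B cells 0 markers reached the filter, so no test was made for them. By the unadjusted p, 3 of the 4 erythroid markers on the array were higher, 1 acinar and 1 adipocyte marker were higher, and 0 markers were lower. Over all genes 7.66% were higher and 11.2% lower by this rule. The summed levels did not overlap between diets for 3 lists: the acinar list, as given above, the erythroid list, with 25617 to 33312 on ethanol and 15433 to 22883 on control, and the macrophage list, 4 of 5 on the array, with 7151 to 8016 on ethanol and 6370 to 7134 on control. All were higher on ethanol, an arrangement seen on 11.1% of single tested probe sets. For the acinar and macrophage lists the lowest ethanol sum was just above the highest control sum. The part of these 3 lists in the Retreg1 and Sqstm1 differences was not tested. Summed levels of stellate cells and fibroblasts, 5 of 5, ran from 9210 to 14050 on ethanol and 9146 to 15713 on control. No marker found on the array was at or below 0 on all arrays.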

How the data were processed

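The deposited values are intensities, 1 per probe set and array, from the pancreas of 3 ethanol-fed and 3 control rats. What software and normalization made them is not given in the sources used here. Read from the values, the authors' intensities are linear whole numbers after background subtraction (931 to 949 below 0 per array), with array medians of 543 or 544, so they were used as deposited. Such scaling removes differences in total RNA. The number of arrays limits the precision: limma's SE of a log2 change had a median of 0.18.

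Of 15923 probe sets, 57 controls were left out. The 2016 platform annotation gives 1 symbol for 12783, several for 312 and none for 2771, and RefSeq GRCr8 held the gene IDs of 12748. Values below 0 were set to 0, 50 was added and the log2 taken. Probe sets at or above the 40th percentile of the mean (9520) were tested with limma 3.58.1 in R 4.3.3, 2 groups, no block, with Benjamini-Hochberg adjustment over all of them. The fit was tested on simulated data. Pairs of probe sets were compared by exact permutation.

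Members and lists were chosen with earlier results of these data known. The rule names all member probe sets, the 3 other genes of smallest p per list, and the 3 genes most like Retreg1 and Sqstm1. Alternatives were constants of 20 and 100, quantile normalization, no filter, a 60th percentile filter, a mean-variance trend, the replicate number as a block, a threshold of 0.10, averaged probe sets, and each array left out. The replicate numbers only name the rats.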

Additional observations from a re-analysis of the deposited data

How the results depend on the processing

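The 2 probe sets of Retreg1 and the Sqstm1 probe sets 1371353_at and 1389381_at kept their direction under all alternatives run. Over these, the limma adjusted p ran from 0.00539 to 0.223 for 1373011_at, from 0.115 to 0.396 for 1373012_at, from 0.00855 to 0.204 for 1371353_at and from 0.0440 to 0.271 for 1389381_at. No setting called 1373012_at, and its unadjusted limma p was under 0.05 in 12 of 14 settings. The count of member probe sets called, 0 of 11, became 2 with a filter at the 60th percentile (1373011_at and 1371353_at), 3 with a variance trend and 3 at an adjusted p under 0.10 (those 2 and 1389381_at), and was 0 under the other settings. Over all probe sets the count was 39, and it was 12 with a constant of 20, 0 with no filter (2263 at an unadjusted limma p under 0.05), 134 with the 60th percentile filter, 249 with the variance trend, 228 at an adjusted p under 0.10 and from 2 to 38 with an array left out (2 without either replicate 3, 3 without control replicate 1, 4 without control replicate 2, 14 without ethanol replicate 2). The threshold of 0.10 was a looser cut on the main fit. The stricter filter tested 6347 probe sets and no filter 15866, against 9520. The filter also moved the unadjusted limma p at the same log2 change. For 1373011_at it was 0.000406 in the main fit, 0.000185 with the stricter filter and 0.000488 with no filter. For the other settings the cause was not tested. With the replicate block the count was 6 over all probe sets and 0 for the members; deviations of same-numbered arrays correlated at -0.0295, 0.0259 and -0.138, so the numbers give no pairing. With an array left out, changes near 0 turned sign: Becn1 ran from -0.16 to 0.22, 1371221_at of Sqstm1 from -0.086 to 0.16 and 1370010_at of Lamp2 from -0.032 to 0.25. The difference in change between 1371353_at and 1389381_at, -0.0053, was 0.0094 with a constant of 20 and ran from -0.17 to 0.14 with an array left out. The differences between these and 1371221_at stayed negative under each of these settings. The filter is a percentile of the mean and not a detection call, and no change is claimed for probe sets under it.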

Other observations

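Other list genes had probe sets whose log2 changes lay apart, and they were named after their values were seen. Outside the members these gaps were not tested. Of 15 list genes with more than 1 tested probe set, 5 had log2 changes over 0.5 apart: Sqstm1, Rtn3, Atg4b, Tecpr1 and Keap1. How common such gaps are over all genes was not determined, so the count is not a result about these lists. Atg4b, a protease that processes Atg8 proteins, read 245, 393 and 416 on the ethanol arrays of its dimmer probe set, against 628, 696 and 687 on the control arrays (log2 change -0.87, SE 0.20, limma adjusted p = 0.0953), while its brighter probe set was at -0.08 (SE 0.14). Keap1, a binding partner of Sqstm1 in the oxidative stress response, was at -0.69 (SE 0.30, limma adjusted p = 0.268) on its dimmer probe set and at -0.09 (SE 0.15) on the brighter one. Tecpr1, a tethering factor, was at -0.67 (SE 0.35) on the dimmer and -0.13 (SE 0.22) on the brighter probe set. Of the 3 Rtn3 probe sets, 1373571_at read 2182, 2345 and 2549 on the ethanol arrays, against 1356, 1385 and 1343 on the control arrays (limma adjusted p = 0.0613).

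Tfeb and Mtor are regulators outside the naming rule and were picked by no set rule. Other regulators had changes of like size, such as Flcn at 0.32 and Deptor at -0.28. Tfeb, the transcription factor that binds CLEAR elements, read 4085, 1225 and 1857 on the ethanol arrays, against 1691, 1686 and 1669 on the control arrays. Ethanol replicate 1 was far above the other 5 arrays, and the log2 change was 0.32 (SE 0.37, limma adjusted p = 0.675). Mtor, the growth kinase that holds back autophagy, read 795, 943 and 748 on the ethanol arrays, against 656, 585 and 683 on the control arrays (log2 change 0.34, SE 0.15, limma adjusted p = 0.272).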
